A study of Homo sapiens with 8 samples.

Results

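AFAP1-AS1 is a long non-coding RNA gene of chromosome 4p16.1, transcribed from the strand opposite AFAP1. It is described here with AFAP1 and 2 protein-coding genes of the same band, SORCS2 and SH3TC1, so that 4 genes were taken by symbol from the 60646 genes of the count table. AFAP1-AS1 was selected on its own RNA-seq level, chosen by its near-complete loss in the knockout in these 8 samples, and its values are therefore given as a description without a test. The other 3 were taken by position, and all 4 passed the filter on low counts, which left 19877 genes. RNA-seq was done on total RNA depleted of ribosomal RNA from MDA-MB-231, an established human cell line from a triple-negative breast cancer, grown in DMEM with serum and collected the day after plating. The 2 groups of 4 samples were wild-type cells and cells labelled DOT1L/+ KO or DOT1L knockout, made with a guide RNA against the first exon of DOT1L, the methyltransferase of histone H3 that acts on its globular domain. The labels do not give the number of clones, the edit or the number of alleles hit, and clone and genotype cannot be told apart. Nor do they state that samples were grown as separate cultures, so a p-value here reflects sample-to-sample spread that may be technical.

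AFAP1 encodes a protein that binds and cross-links actin filaments and is a partner of SRC-family kinases and protein kinase C. AFAP1-AS1 runs antisense to the last part of AFAP1 and is known as an abundant RNA of several carcinomas, where it has been studied for its role in invasion. SORCS2 is a sorting receptor of the sortilin family that binds neurotrophin precursors together with the receptor NGFR. SH3TC1 encodes a little-studied protein with SH3 and tetratricopeptide domains, related to SH3TC2, a RAB11-binding protein of endosome recycling.

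In GENCODE 29 (GRCh38, the same build as hg38) AFAP1-AS1 (ENSG00000272620) covers chr4:7754090-7778928 on the plus strand and has 2 exons. AFAP1 (ENSG00000196526) covers chr4:7758714-7939926 on the minus strand. AFAP1-AS1 starts 4624 bases beyond the 3′ end of AFAP1, and the gene spans share 20215 bases. SORCS2 (ENSG00000184985, chr4:7192538-7742836, plus strand) ends 11254 bases before AFAP1-AS1 starts. SH3TC1 (ENSG00000125089, chr4:8182072-8241803, plus strand) starts 427982 bases beyond that start, past AFAP1.

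Exon 2 of AFAP1-AS1 has 6725 bases and lies opposite exons of AFAP1 over 523 bases, 471 of them coding in AFAP1, in 3 stretches. These shared bases make up 7.7% of the exonic bases of AFAP1-AS1 and 5.21% of those of AFAP1. One coding stretch of 191 bases (chr4:7772820-7773010) is shown on both strands, since reads from it can be told apart by strand alone. Both sequences come from GENCODE 29 transcripts, written as DNA and 5′ to 3′. The capitals mark the same 30 base pairs in each, and the AFAP1 sequence is the reverse complement of the AFAP1-AS1 sequence.
AFAP1-AS1 exon 2 part: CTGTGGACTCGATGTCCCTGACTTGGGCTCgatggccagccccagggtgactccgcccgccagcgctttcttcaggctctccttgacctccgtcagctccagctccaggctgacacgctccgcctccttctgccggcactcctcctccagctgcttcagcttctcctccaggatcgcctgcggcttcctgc
AFAP1 coding exon part: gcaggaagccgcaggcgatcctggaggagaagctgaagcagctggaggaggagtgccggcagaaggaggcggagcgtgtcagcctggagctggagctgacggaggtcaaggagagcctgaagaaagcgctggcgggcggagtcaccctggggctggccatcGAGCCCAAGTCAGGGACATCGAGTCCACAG

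Totals per sample ran from 40103408 to 50031412 counts. DOT1L itself was lower in the knockout, at 109.3 ± 8.53 CPM (read counts scaled to library size with trimmed-mean factors) in wild-type and 84.7 ± 5.91 CPM in the knockout (SD, n = 4 each). Reads of an edited allele still add to that count. Of the markers of this cell line, VIM, CD44 and AXL were high in both groups (774.8 to 3871 CPM as group means), while ESR1, PGR and CDH1 had group means of at most 0.54, 0.093 and 0.21 CPM. The summed level of 9 markers of blood, endothelial and fibroblast cells was 9.24 to 14.8 CPM in wild-type and 20.1 to 22.2 CPM in the knockout, most of it COL1A1 (10.2 and 18.8 CPM), with 2 of the 9 called higher by edgeR, 0 lower and 2 not passed. CD3E and COL1A2 were at 0 in wild-type and DCN at 0 in the knockout. The sum of 7 luminal and epithelial markers was 295 to 353 CPM in wild-type and 472 to 608 CPM in the knockout, most of it KRT8, with 3 called higher and 2 not passed. The part of these markers' cells in the results below was not tested. Across all tested genes 47.6% were called by edgeR's quasi-likelihood test at a Benjamini-Hochberg adjusted p below 0.05 (called here means this), 23.9% higher and 23.6% lower, so a call on its own does not set a gene apart. Higher calls were 50.3% of all calls, and 61.9% with upper-quartile scaling and 61.2% with library totals. In bulk RNA, fewer cells with a transcript and less transcript per cell cannot be told apart.

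AFAP1-AS1 was an abundant transcript in wild-type cells and was almost absent from the knockout. The wild-type replicates 1, 2, 3 and 5 gave 118.9, 117.7, 138 and 116.9 CPM for it. The knockout replicates of the same numbers gave 0.082, 0.021, 0.021 and 0.040 CPM. The groups were far apart, with all 4 knockout samples far below the lowest wild-type sample. The knockout values stood for 4, 1, 1 and 2 counts, against 5041, 4700, 6531 and 5365 counts in the wild-type samples. Summed over the groups, 21637 counts stood against 8, a ratio of 3001 after scaling (95% exact counting interval 1523 to 6953, counting error only). The level that remained was thus 0.033% of wild-type (interval 0.014% to 0.066%). On the deposited log2 scale the wild-type samples stood at 12.4 to 12.7 and the knockout samples at 5.79 to 5.99. The fitted log2 change was -11.46, the second largest fall of the 19877 tested genes (rank 2).

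Per length of exon, AFAP1-AS1 was higher than the gene it opposes in wild-type cells. It stood at 18.1 ± 1.49 CPM per kb, against 8.36 ± 0.47 CPM per kb for AFAP1 (SD, n = 4 each). The ratio of the 2 levels was 2.04, 2.12, 2.6 and 1.94 in wild-type replicates 1, 2, 3 and 5. In the knockout it lay between 0.00041 and 0.0017. By level per length AFAP1-AS1 ranked 7 among 1314 tested antisense genes in wild-type cells, where the median antisense gene stood at 0.67 CPM per kb, and 1311 in the knockout.

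**Figure D1:**
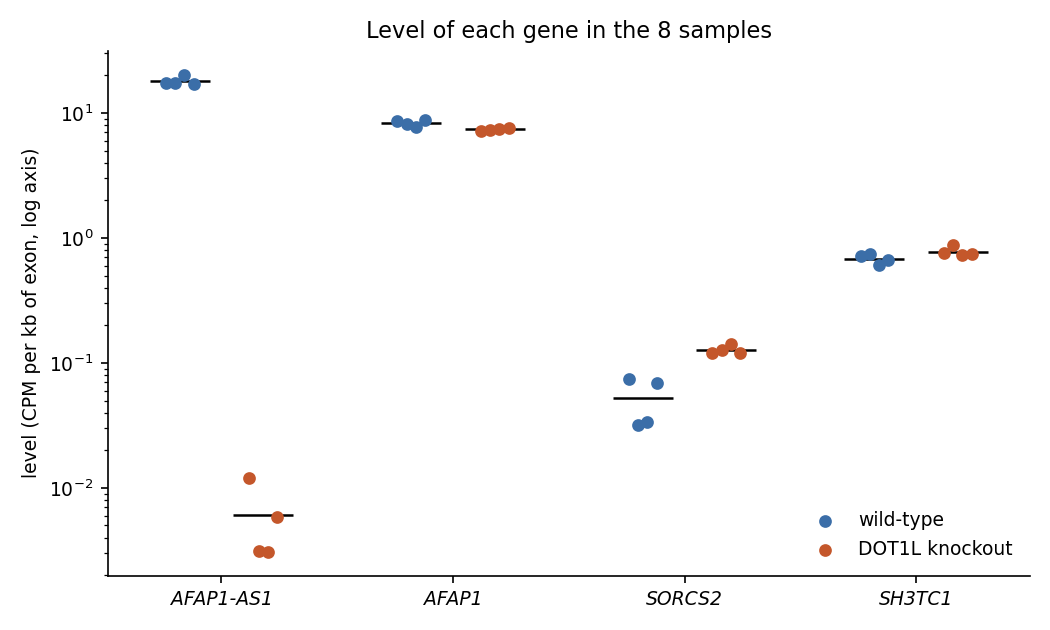
Level of AFAP1-AS1, AFAP1, SORCS2 and SH3TC1 in each of the 8 samples, as CPM per kb of exon on a log axis; points are samples and lines are group means (n = 4). AFAP1-AS1 is the highest of the 4 in wild-type cells (18.1 CPM per kb) and the lowest in the knockout (0.0060 CPM per kb), while AFAP1 stays near 8 CPM per kb in both groups.

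AFAP1, on the opposite strand, kept most of its level. In wild-type replicates 1, 2, 3 and 5 it stood at 86.2, 81.97, 78.3 and 88.99 CPM. The knockout replicates gave 72.5, 73.9, 75.1 and 76.1 CPM. The 4 knockout samples lay close together and just under the lowest wild-type sample, and 43.4% of all tested genes had groups that did not overlap. The group means were 83.9 ± 4.71 and 74.4 ± 1.56 CPM, a fall of 11.3% (log2 change -0.17, SE 0.05, edgeR adjusted p = 0.00488). Adjusted p was 0.0711 with upper-quartile scaling and 0.0746 with library totals, so the call depended on the scaling.

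AFAP1 and AFAP1-AS1 share exonic bases, and no source used here states whether the counting used the strand, although the library kit is named as stranded. At even coverage, the AFAP1 exons that face AFAP1-AS1 would hold 183 to 200 of the AFAP1 counts of a knockout library, and AFAP1-AS1 was given 1 to 4 counts there. That would be so both with counting by strand and if reads that overlap 2 genes were left uncounted. In a wild-type library the exonic bases of AFAP1-AS1 that face AFAP1 would hold 362 to 503 of its counts, and AFAP1 itself had 3273 to 4083. Whether any of those reads entered the wild-type level of AFAP1 was not tested.

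Per length SORCS2 was the least expressed of the 4 genes in wild-type cells, and it rose in the knockout. It had 0.47, 0.20, 0.21 and 0.44 CPM across wild-type replicates 1, 2, 3 and 5, from 20, 8, 10 and 20 counts. The knockout replicates had 0.76, 0.80, 0.90 and 0.75 CPM, from 37, 38, 43 and 38 counts. All knockout samples lay above all wild-type samples, and wild-type replicates 2 and 3 were at about the same low level. The mean rose from 0.33 ± 0.14 to 0.80 ± 0.068 CPM, 2.43-fold (log2 change 1.27, SE 0.28, edgeR adjusted p = 0.000633). SORCS2 reached the minimum of the low-count filter (0.213 CPM in 4 samples) in 2 wild-type and 4 knockout samples, so it was tested only because of its knockout level. The call came from 58 and 156 counts in all, and per length SORCS2 in the knockout (0.13 CPM per kb) was still far under AFAP1 (7.41 CPM per kb).

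SH3TC1 did not pass the test. Wild-type replicates 1, 2, 3 and 5 had 7.65, 7.86, 6.38 and 6.996 CPM. Knockout replicates had 8.02, 9.24, 7.75 and 7.89 CPM. The groups overlapped, since wild-type replicate 2 lay above knockout replicate 3. The means were 7.22 ± 0.67 and 8.23 ± 0.69 CPM (log2 change 0.19, SE 0.09, 95% interval -0.0021 to 0.38, edgeR adjusted p = 0.0974). With upper-quartile scaling the change was 0.26 (adjusted p = 0.0295) and with library totals 0.25 (adjusted p = 0.0412), so a rise was called under those scalings.

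In order of level per length, the wild-type samples gave AFAP1-AS1, AFAP1, SH3TC1 (0.68 ± 0.063 CPM per kb) and SORCS2 (0.052 ± 0.023 CPM per kb). The knockout samples gave AFAP1, SH3TC1 (0.78 ± 0.065 CPM per kb), SORCS2 (0.13 ± 0.011 CPM per kb) and AFAP1-AS1 (0.0060 ± 0.0042 CPM per kb). No 2 neighbours in either order overlapped in their sample values. The order of the 3 protein-coding genes among themselves was the same in both groups.

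The members were next set against the 40 nearest tested genes of the chromosome, 20 on each side, to see whether the stretch moved as a whole. The 40 neighbours of AFAP1-AS1 had a median log2 change of -0.09, with 8 called higher, 13 lower and 19 not passed, beside 23.9% and 23.6% of all tested genes. In each sample the median log2 CPM of a gene's neighbours was subtracted from its own. This median is taken over levels and not over changes. Differences on this scale therefore need not equal a gene's change less the neighbours' median change.

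On that scale SORCS2 stood at -4.84 ± 0.61 in wild-type and -3.31 ± 0.11 in the knockout (SD, n = 4 each), a difference of 1.53. SH3TC1 stood at -0.59 ± 0.15 and -0.098 ± 0.13, a difference of 0.49, though its own log2 CPM differed by 0.19. With each neighbour first centred on its own mean, the differences were 1.4 for SORCS2 and 0.32 for SH3TC1. For both genes all knockout samples lay above all wild-type samples, and the exact two-sided permutation p was 0.0286, the smallest that 4 against 4 samples can give, or 0.0429 adjusted over the 3 genes tested. SORCS2 had passed the low-count filter only through its knockout samples, so its separation here is no further sign of a rise. With 10 neighbours a side SORCS2 stood at 0.68 (exact p = 0.0571) and SH3TC1 at 0.20 (exact p = 0.0857), so both calls depended on how many neighbours were taken. Both were also lost with the same-numbered samples taken as pairs (exact sign-flip p = 0.125, the smallest that 4 pairs can give, which cannot pass).

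AFAP1 stood at 3.06 ± 0.11 in wild-type and 3.16 ± 0.0084 in the knockout, a difference of 0.10 whose groups overlapped (exact permutation p = 0.114). Its direction was not stable: it was -0.75 with 10 neighbours a side (exact p = 0.0286) and -0.037 when each neighbour was first centred on its own mean (exact p = 0.6). Without wild-type replicate 1 it was 0.14 (exact p = 0.0286). Taken as pairs, AFAP1 gave the same exact sign-flip p of 0.125 as SORCS2 and SH3TC1. That is the smallest p that 4 pairs can give whatever the size of a difference, so nothing is read from the shared value. The same subtraction left AFAP1-AS1 at -10.3.

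**Figure D2:**
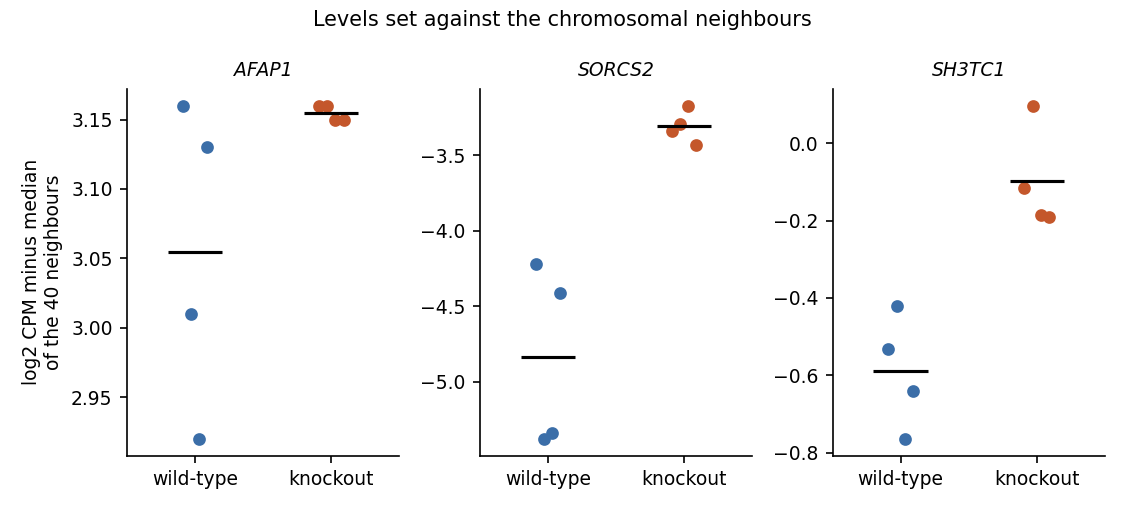
Log2 CPM of AFAP1, SORCS2 and SH3TC1 in each sample after subtracting the same sample's median over the 40 nearest tested genes; points are samples, lines are group means (n = 4), and each panel has its own vertical axis. The groups overlap for AFAP1 and are separate for SORCS2 and SH3TC1. SORCS2 passed the low-count filter only through its knockout samples.

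Within 1 Mb of the start of AFAP1-AS1, no other tested gene fell by 2-fold or more. Of 34 annotated genes that start in this window, 18 were tested, and without AFAP1-AS1 17 remained. Of these 17, 5 rose, 5 fell and 7 did not pass (58.8% called, against 47.6% of all tested genes). That balance of rises and falls rested on genes with few counts: with a minimum mean log2 CPM of 1, 1 rose and 5 fell, and within 2 Mb 6 rose and 11 fell. At 2-fold or more, 3 rose and 0 fell, beside 6.72% and 2.64% of all tested genes. Of the 17 genes 4, SORCS2 and GPR78 among them, passed the low-count filter only through the knockout samples, and 0 only through the wild-type samples. Nothing is read from the 2-fold counts for that reason. Falls of any size numbered 5 by edgeR and 5 by DESeq2, and the largest was -0.70, so the count of 0 does not hang on the p threshold.

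SORCS2 and GPR78 were among the 3 genes with rises of 2-fold or more. GPR78, an orphan G protein-coupled receptor whose span overlaps CPZ, was called higher on 21 wild-type and 88 knockout counts, or 0.12 ± 0.083 and 0.45 ± 0.16 CPM (log2 change 1.89, edgeR adjusted p = 0.00111), and knockout replicate 2 lay just above wild-type replicate 2. This gene reached the filter minimum in 1 wild-type and 4 knockout samples, so it was tested only because of its knockout level. HTRA3, a secreted serine protease next to SH3TC1, had 2.95 ± 0.59 CPM in wild-type and 4.28 ± 0.30 CPM in the knockout (log2 change 0.53, adjusted p = 0.00215). The non-coding ENSG00000251615 was also called higher (0.61, adjusted p = 0.0249), but its groups overlapped and the call was lost without any 1 of 5 samples (replicates 1, 2 and 5 of wild-type, 1 and 3 of the knockout, adjusted p 0.0532 to 0.0908).

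The falls other than that of AFAP1 lay on the side towards the end of the short arm, beyond SORCS2. GRPEL1, a nucleotide exchange factor of mitochondrial HSP70, was at 59.1 ± 3.68 CPM in wild-type and 36.5 ± 3.44 CPM in the knockout (log2 change -0.70, adjusted p = 1.33e-08). TBC1D14, a RAB11-binding regulator of autophagy, fell from 72.4 ± 3.72 to 50.1 ± 3.87 CPM (-0.53, adjusted p = 8.25e-08). TADA2B, an adaptor of the SAGA acetyltransferase complex, and KIAA0232 fell by 0.34 and 0.30 on the log2 scale. On that side 1 of 7 tested genes rose and 4 fell (71.4% called). On the side of the centromere 4 of 10 rose and 1 fell (50% called), beside 47.6% of all tested genes. SORCS2, the gene that rose on the short-arm side, and GPR78, on the centromere side, were tested only because of their knockout levels. The difference between the sides was not tested.

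**Figure D3:**
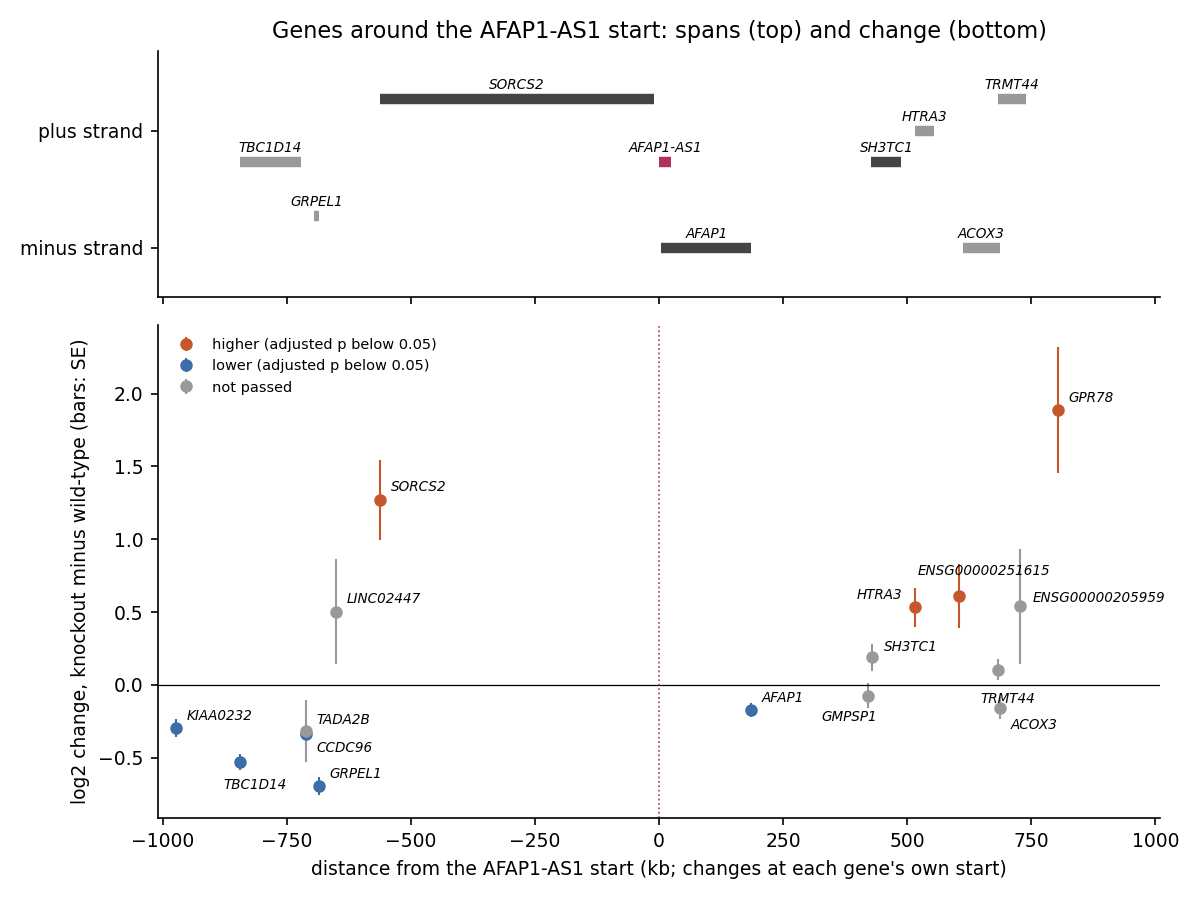
Top, gene spans by strand for 9 genes; bottom, log2 change (knockout minus wild-type, bars SE) of 16 of the 17 tested genes other than AFAP1-AS1, whose own value of -11.46 is off the axis, against the distance of their starts from the AFAP1-AS1 start in kb. Falls other than that of AFAP1 lie towards the end of the short arm (left), and GPR78 and SORCS2 have the largest rises drawn. Both of these passed the low-count filter only through their knockout samples.

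Among the genes of the window with too few counts to be tested, PSAPL1, a saposin-like gene inside SORCS2, had 0 counts in every wild-type library and 15 over the knockout group. The microRNA genes of the window had 0 to 2 counts over a group.

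The stretch around AFAP1-AS1 was also set beside the rest of chromosome 4. Of its 40 nearest tested genes 32.5% were called lower, beside 23.6% of all tested genes. Of the other 658 tested genes of the chromosome, 378 (57.4%) were called lower and 81 higher, with a median change of -0.61. The running median of 21 genes was -0.16 at SORCS2, -0.07 at AFAP1 and 0.00 at SH3TC1. Towards the end of the short arm it was lower, -0.295 at GRPEL1 and -0.36 at KIAA0232, so the stretch was not uniform. The rest was not uniform either. Beyond the AFAP1-AS1 start the running median was 0.05 at 17.41 Mb and 0.09 at 36.92 Mb, but -0.73 at 46.31 Mb. The share of 57.4% therefore does not describe the part of the rest that lies nearer to the stretch. The difference between the stretch and the rest was not tested.

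**Figure D4:**
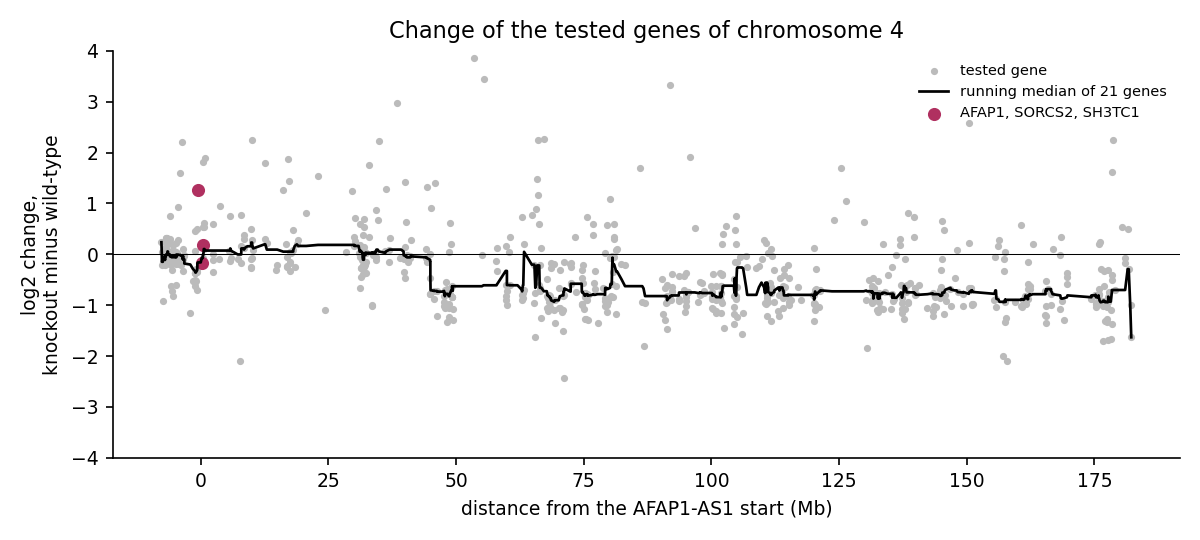
Log2 change (knockout minus wild-type) of the tested genes of chromosome 4 against the distance of their starts from the AFAP1-AS1 start in Mb, with the running median of 21 genes; AFAP1-AS1 and 11 other genes lie at or beyond the axis limits of 4 and are not drawn. AFAP1, SORCS2 and SH3TC1 lie at the left, where the running median is -0.16 at SORCS2, -0.07 at AFAP1 and -0.003 at SH3TC1. It dips beside them towards the end of the short arm (-0.36 at KIAA0232), and it is lower over most of the right side.

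The pair of AFAP1-AS1 and AFAP1 was set beside other pairs in which a gene and its antisense partner (named by the suffix AS1) were both tested. There were 522 other pairs. Their antisense members had a median change of 0.08, and 112 were called higher, 64 lower and 346 neither. Over all tested genes 23.9% were called higher and 23.6% lower. With upper-quartile scaling 139 rose and 49 fell, and with library totals 132 and 49. A fall of 2-fold or more was called for 14 of the 522 antisense genes, beside 2.64% of all tested genes, so such falls were about as frequent here as elsewhere. Of the sense partners of these 14, 4 rose, 5 fell and 5 did not pass, with a median change of -0.08 and 1 fall of 2-fold or more. The change of AFAP1 beside it was -0.17.

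The next largest antisense falls came from far fewer counts than that of AFAP1-AS1. ATP8B1-AS1 had 217 counts over the wild-type libraries and 0 over the knockout ones, which makes it at least 20-fold lower with 3 counts per library as the limit. ATP8B1 itself stood at -0.12 (edgeR adjusted p = 0.0760). G2E3-AS1 fell by 3.72, while its partner G2E3 rose by 0.34 on the log2 scale. NFIB-AS1 fell by 2.99 and NFIB, a nuclear factor I protein, by 0.63. In the knockout ATP8B1-AS1, G2E3-AS1 and NFIB-AS1 had means of 0, 0.041 and 0.067 CPM, under the filter minimum of 0.213 CPM. All 3 were thus tested only because of their wild-type levels. DDN-AS1 fell by 1.77, with DDN at 0.00 (adjusted p = 0.994). The largest rises were those of SLCO5A1-AS1 (2.46) and FAM222A-AS1 (2.45), whose partners rose by 2.06 and 0.44.

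**Figure D5:**
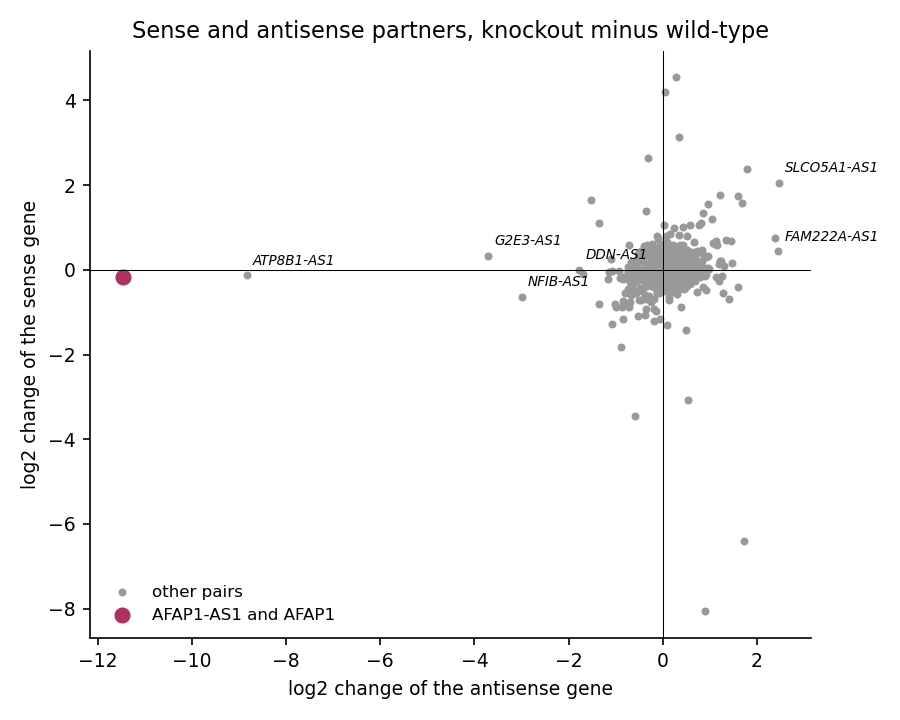
Log2 change (knockout minus wild-type) of the sense gene against that of its antisense partner, 1 point per tested pair. AFAP1-AS1 and AFAP1 lie farthest left at -11.46 and -0.17, followed by ATP8B1-AS1, whose fitted position depends on the prior count because its knockout counts are all 0.

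The genes with profiles most like that of AFAP1-AS1 over the 8 samples, by root mean square distance of log2 CPM taken relative to each gene's wild-type mean, were PNMA8A (distance 1.3), CCDC8 (1.94), ZNF43 (2.17), ASRGL1 (2.34) and IRAK3 (2.49). PNMA8A had 3333 counts in wild-type and 0 in the knockout, and IRAK3 had 1464 and 4. The wild-type means of the 5, in the same order, were 19.1, 13.6, 10.8, 8.9 and 8.38 CPM, with 0 to 4 counts each in the knockout. The order was thus that of wild-type level. The distance includes the fall by which AFAP1-AS1 was chosen, so the list holds other near-complete losses and shows no further likeness. None of the 5 lies on chromosome 4.

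Relatives and partners of AFAP1 moved in both directions. Of 15 genes of the AFAP family, the SRC family and their partners 13 were tested, and 4 rose, 6 fell (AFAP1 among them) and 3 did not pass. Over all tested genes 47.6% were called, 23.9% higher and 23.6% lower. Their median was 0.00, as over all genes. With upper-quartile scaling 6 rose and 4 fell, and with library totals 5 and 4. AFAP1L2, a close relative of AFAP1, rose from 1.41 ± 0.42 to 5.22 ± 0.69 CPM (log2 change 1.89, edgeR adjusted p = 2.69e-08). AFAP1L1, named after its value was seen, stood at 87.6 ± 4.93 and 94.75 ± 5.31 CPM (0.11, adjusted p = 0.0765), and passed with upper-quartile scaling (adjusted p = 0.00657), library totals (0.0106), the replicate number as a block (0.0167), a mean log2 CPM minimum of 1 (0.0271), or without wild-type replicate 1 (0.0358) or knockout replicate 5 (0.0216). SRC fell from 75.9 ± 4.67 to 48.01 ± 1.47 CPM, and PRKCA, a protein kinase C that binds AFAP1, fell from 341.7 ± 13.8 to 176.4 ± 10.6 CPM. LCK, the SRC-family kinase of T cells, rose from 0.23 ± 0.13 to 1.98 ± 0.34 CPM, while CD3E, which marks T cells, was at 0 CPM in wild-type and 0.0050 CPM in the knockout. By its wild-type mean and SD, LCK was not at the 0.213 CPM filter minimum in every wild-type sample. It was thus tested only because of its knockout level, and is counted among the 4 rises.

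For SORCS2, the list of sortilin receptors and neurotrophin partners had 8 of 14 members tested. Of these 2 rose (SORCS2 and SORL1), 3 fell and 3 did not pass, with a median of -0.16, beside 47.6% of all tested genes called. SORL1, a sorting receptor of the same family, rose from 4.94 ± 0.97 to 25.2 ± 1.78 CPM (log2 change 2.36, edgeR adjusted p = 3.17e-11). SORT1, the namesake sortilin of the family, fell from 271.6 ± 9.87 to 177.2 ± 2.25 CPM. NGFR, the neurotrophin receptor that pairs with sortilin-family proteins, fell from 0.86 ± 0.14 to 0.15 ± 0.078 CPM, and TRIO, a guanine nucleotide exchange factor, from 434.7 ± 17.7 to 266.1 ± 9.76 CPM. The knockout mean of NGFR lay under the filter minimum of 0.213 CPM, so it was tested only because of its wild-type level. SORCS2 was tested only because of its knockout level. With a minimum mean log2 CPM of 1, 5 members were tested, of which 1 rose and 2 fell.

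For SH3TC1, the list of its family and of RAB11 recycling held 11 tested members with a median of 0.20. Of these 6 rose, 1 fell and 4, SH3TC1 among them, did not pass, beside 23.9% of all tested genes called higher and 23.6% lower. SH3TC2, the paralog, named after its value was seen, rose from 30.3 ± 5.95 to 47.96 ± 2.95 CPM (log2 change 0.66, edgeR adjusted p = 0.00318). RAB11A, the GTPase of recycling endosomes, rose from 107.9 ± 2.19 to 140.7 ± 3.23 CPM, and its effectors RAB11FIP5 and MYO5B rose by 0.56 and 0.69 on the log2 scale. EHD1, which acts in exit from recycling endosomes, was the member that fell (-0.41).

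Among other long non-coding RNAs studied in breast cancer, 12 of 21 were tested, and 2 rose, 5 fell and 5 did not pass, with a median of -0.06. The share called over all tested genes was 47.6%. With upper-quartile scaling or library totals 2 rose and 3 fell. SNHG1 fell from 247.8 ± 10.4 to 136.9 ± 5.97 CPM and MALAT1 from 3084 ± 398.6 to 2445 ± 179.5 CPM. ZFAS1 fell by 0.25 on the log2 scale, and UCA1 rose from 60.75 ± 18.4 to 230.3 ± 37.35 CPM. No tested RNA of this list fell by 2-fold or more, beside 2.64% of all tested genes. With 12 tested, nothing is read from that. AFAP1-AS1, chosen for its fall, was not a member of the list. HOTAIR and H19 had 0 counts in every library.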

How the data were processed

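The authors deposited a table of raw read counts by Ensembl gene and a second table on the log2 scale, titled as a variance-stabilizing transformation. Build hg38 and the tools FastQC 0.11.7, STAR 2.6.0c, Subread 1.6.2 with featureCounts, and DESeq2 1.23.10 are named in the submitters' processing notes, without parameters. Annotation release, strand setting and treatment of multi-mapping reads: not given in the sources used here. Of 60646 identifiers 60333 had a symbol and 58459 matched GENCODE 29. Replicates of a group differed beyond sampling noise (chi-square per degree of freedom 3.41 to 18.4).

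Knockout and wild-type were compared over all genes in R 4.3.3 with edgeR 4.0.16 (filterByExpr, trimmed-mean scaling, robust quasi-likelihood fit, group as the single term). Log2 CPM used a prior count of 2. In these libraries 1 count stood for 0.0200 to 0.0249 CPM before the trimmed-mean factors. The interval of the AFAP1-AS1 ratio covers counting error only, while that of SH3TC1 comes from the fitted change and its SE. On data simulated for this comparison over 18978 genes, the fit recovered 91% of 67 altered genes at 1.5-fold, 92.5% of 67 at 2-fold and 100% of 66 at 4-fold. Of its 201 calls 5.97% were false. The altered genes were few and were drawn only from genes above about 1 CPM on average, and the simulated samples were not paired. In the data 47.6% of tested genes were called. These rates therefore need not hold for the data, nor for genes of lower level such as SORCS2. Alternatives were other scalings, filters, windows, DESeq2 1.42.0, a replicate block and leaving out each sample. Added after seeing the data were limma 3.58.1 on the deposited log2-scale values and neighbours centred on their own means. The centred form was computed first; the form reported as the result is the one in the design.

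Same-numbered samples deviated together (correlations of 0.376, 0.154, 0.153 and 0.391 over 13212 genes, against -0.301 to 0.0596 for others), each over 0.1. The numbers 1, 2, 3 and 5 in the labels were therefore taken to pair the samples, and this pairing was used in the alternatives only; the reported fit and permutation tests were unpaired, as designed.

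The members and lists were chosen with earlier results of these data known. Named genes were the 4 members and DOT1L, tested genes within 1 Mb, up to 4 passing members per list with the smallest adjusted p, markers, the 5 most alike profiles, and the 4 largest other antisense falls and 2 largest rises. Of the genes, lists and sequences these rules gave, some are not reported here.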

Additional observations from a re-analysis of the deposited data

Results flagged for a closer look

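In 2 of 36 groups of 4 samples checked over the genes of the window, 1 sample stood far from the other 3; chance gives about 1 in 20 such groups. AFAP1-AS1 in wild-type replicate 3 was at 138 CPM, against 116.9 to 118.9 CPM in the other 3 wild-type samples. KIAA0232 in wild-type replicate 5 was at 28.8 CPM, against 31.1 to 31.6 CPM in the other 3.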

How the results depend on the processing

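With the replicate number as a block, AFAP1 (-0.17), SORCS2 (1.29) and SH3TC1 (0.19) kept their side of the threshold and 10472 genes were called, against 9458. Among the named genes AFAP1L1 was the one call it changed. Exact sign flips within pairs gave p = 0.125 for SORCS2 (1.53), SH3TC1 (0.49) and AFAP1 (0.10) relative to neighbours, the smallest p that 4 pairs allow. With upper-quartile scaling AFAP1 was at -0.11 and SH3TC1 at 0.26, and with library totals at -0.11 and 0.25. These scalings put the median of all genes at 0.07 (log2). A minimum mean log2 CPM of 1, under which fewer genes are tested and SORCS2 is not, gave 6 calls within 1 Mb (1 higher, 5 lower, against 5 and 5), 99 antisense calls and 3 in the sortilin list. Windows of 500 kb and 2 Mb held 2 (1 higher, 1 lower) and 17 (6 higher, 11 lower) called genes. Relative to 10 neighbours a side AFAP1-AS1 stood at -11.1, AFAP1 at -0.75, SORCS2 at 0.68 and SH3TC1 at 0.20, and AFAP1 stood at -0.037 against centred neighbours; the cause was not tested. Leaving out 1 sample gave 0.054 to 0.14 for AFAP1 on that scale. The change of AFAP1-AS1 was -6.62 on the deposited transformed scale, and -12 to -11.3 when 1 sample was left out. The small change of GMPSP1 (-0.07) ran from -0.12 to 0.0016, the latter without wild-type replicate 3. Depth limits AFAP1-AS1 in the knockout (1 to 4 counts a library) and SORCS2 in wild-type (8 to 20).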
